A study of Homo sapiens with 4 samples.

Results

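The genes described here are 49 protein-coding genes of the long arm of human chromosome 13, from PCDH9 to TUBGCP3 (13q21-q34), out of 56809 gene rows in the count table. They were chosen by measured values, the log2 fold changes of these libraries, because they lie in the stretch of neighbouring genes with the lowest median in the BCL7A knockout (KO) libraries. The comparison of KO with control therefore picked the members, and its values for them are given as a description without a test. The question was whether the lower level is shared evenly along the stretch, as a change in gene copies could give, or arises gene by gene.

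RNA came from NCI-H929, an established multiple myeloma (plasma cell) line, made to express the nuclease Cas9 and used at an early passage. One group of 2 libraries carried a doxycycline-inducible construct against BCL7A, which encodes a subunit of BAF chromatin remodelling complexes. The other group of 2 libraries was labelled wild type in the sample titles, while the treatment protocol speaks of a control construct. Both groups had puromycin selection for 3 days and then doxycycline at 0.5 ug/ml for 24 h. Whether the cells of a group were 1 clone or a pool is not given in the sources used here, and neither is the origin of the libraries (separate cultures or not). Errors and p-values therefore measure only the spread between these libraries.

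Genes that neighbour each other on a chromosome arm mostly have unrelated functions, and what they share is the DNA molecule they sit on. When a segment of a chromosome is lost, every gene on it loses copies and their mRNA levels tend to drop together, whereas silencing through a promoter acts on single genes or small groups. Loss of 13q is one of the most frequent chromosomal lesions of multiple myeloma, and the tumour suppressor RB1 and the microRNA host gene DLEU2, at 13q14, lie on the centromeric side of the members. DNA copy number was not measured here.

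Gene counts summed to between 17567202 and 20153596 in the control libraries and to between 38671744 and 40799624 in the KO libraries, so depth differed with the group. BCL7A itself was at 1.31 and 1.19 CPM in the KO libraries, against 42.9 and 45.7 CPM in control (CPM is the count scaled by library total and TMM factor). Markers of plasma cells were present in both groups (10 of 10 genes, summed level 8156 to 8275 CPM in control and 15248 to 15289 CPM in KO). Of 10 mature B cell markers, 5 were lower and 1 was higher in the KO libraries, and their summed level was 452 to 465 CPM in control against 35.6 to 38.5 CPM in KO, with MS4A1, CD22 and SPIB under 1 CPM in both groups. The T cell, myeloid, erythroid, epithelial and fibroblast lists summed to at most 70.9 CPM in any library, and CD3D, MPO, KRT19 and LUM were at 0 counts throughout. The summed level of all of these lists but the myeloid one was higher in the control libraries. Of the T cell list, CD3E was present in both groups (23.9 CPM in control, 13.9 CPM in KO), and CD8A was at 3.14 CPM in control and 0.0413 CPM in KO. In control EPCAM reached 52.9 ± 2.12 CPM (SD, n = 2) of the epithelial list. COL1A1 reached 9.85 CPM of the fibroblast list there and HBA1 3.85 CPM of the erythroid list. Within the epithelial list KRT18 went the other way (6.49 CPM in KO, 1.93 CPM in control), and CDH1 was at 4.46 and 4.13 CPM. The part of these shifts in the values below was not tested.

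Levels were compared with edgeR's quasi-likelihood test over 17885 genes that passed a filter on low counts, with Benjamini-Hochberg adjustment and a threshold of 0.05. A log2 fold change (log2FC) is KO over control, so a negative value is a lower level in the KO libraries. Of the 49 members, 43 passed the filter, and 6 (EDNRB, GPC5, DZIP1, GPR18, GPR183 and RAB20) were too low. Of the 43, 25 were past the threshold on the lower side and 9 on the higher side, and 9 were not past it. Over all tested genes 39.8% were called lower and 36.4% higher, 76.2% in either direction; the members were picked on this comparison, so nothing is read from their share. In 32 members both KO libraries lay below both control libraries, which held for 46.1% of all tested genes. GPC6, MBNL2, KDELC1 and BIVM reached the filter through the control libraries alone, so a difference was built into their passing.

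The lower level did not run through the whole stretch. Among the 133 protein-coding genes of chromosome 13 with a mean of at least 10 CPM (30 of them members), the running median of 10 neighbours lay between -0.20 and 0.60 on the log2 scale in the 87 positions that ended before ABCC4. In the 28 positions that began at ABCC4 or later it lay between -1.43 and -0.73. The 385 kb between GPR180, which ends at base 94634645 of chromosome 13 (GRCh38), and ABCC4, whose nearer end is at base 95019829, was therefore taken as a boundary, a choice made after the values were seen. The members fall into 16 on the centromeric side (PCDH9 to GPR180) and 33 on the telomeric side (ABCC4 to TUBGCP3).

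**Figure D1:**
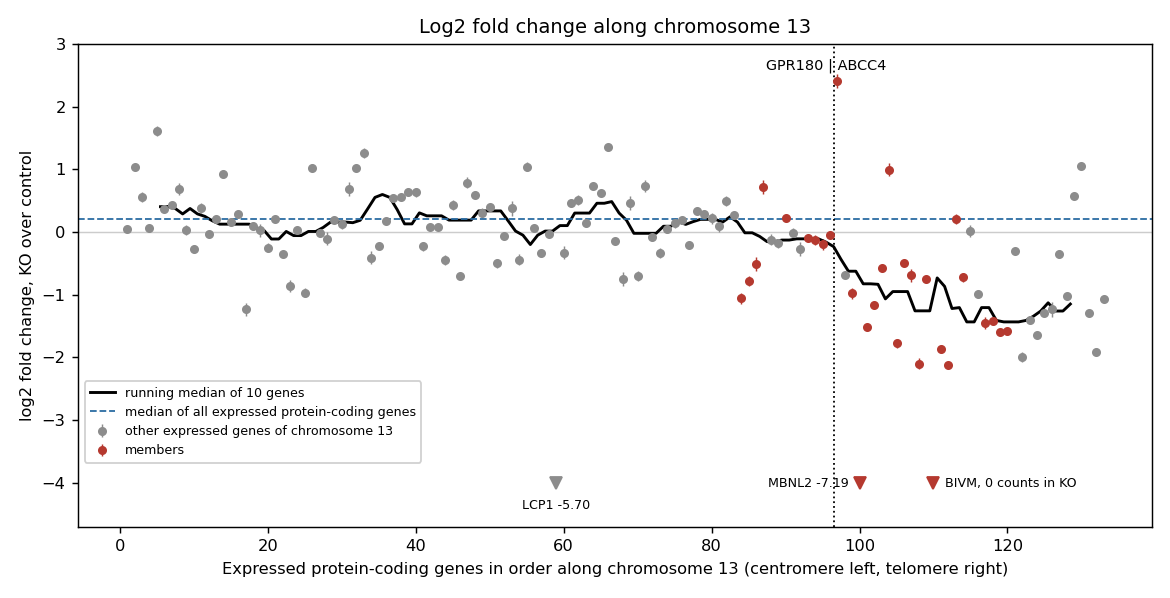
Log2 fold change (KO over control, y axis) of the 133 expressed protein-coding genes of chromosome 13 in their order along the chromosome (x axis), with bars for the standard error, members in red and other genes in grey. Triangles mark genes below the axis, the black line is the running median of 10 genes, and the line stays close to the dashed median of all expressed genes up to GPR180 and lies between -1.43 and -0.73 from ABCC4 onward.

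The 9 centromeric members with a mean of at least 10 CPM had a median log2FC of -0.13 (quartiles -0.51 and -0.04). The 21 telomeric ones had a median of -1.42 (quartiles -1.77 and -0.69). All 8787 protein-coding autosomal genes at that level had a median of 0.20, and relative to it the telomeric median was -1.62 and the centromeric median -0.33. Of the telomeric 21, 18 were called lower and 3 higher, and of the centromeric 9, 3 were called lower and 2 higher. Among the 8787 genes 30.7% were called lower and 55.2% higher. At least 2-fold lower were 12 of the telomeric 21 and 1 of the centromeric 9, against 8.21% of the 8787. Over all 30 such members the median relative to the 8787 genes was -0.96. With a minimum of 20 CPM it was -1.68, where 14 of the 17 remaining members were telomeric. Without a minimum level the step was smaller. The 29 tested telomeric members had a median log2FC of -0.74 and the 14 tested centromeric ones -0.16, beside -0.06 over all tested genes. Of the 13 tested members under 10 CPM (median -0.31), 4 were called lower and 4 higher (30.8% each). Over all tested genes 39.8% were called lower and 36.4% higher.

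The genes past the last member carried on the pattern. From ATP11A to the telomere, 13 expressed genes that are no members had a median log2FC of -1.23, with 11 called lower and 2 higher. Among them were CUL4A, a scaffold of ubiquitin ligases (-1.64, SE 0.04), LAMP1, a lysosomal membrane protein (-1.28, SE 0.03), and the cell cycle transcription factor partner TFDP1 (-1.02, SE 0.03). GAS6 (0.58, SE 0.04) and RASA3 (1.05, SE 0.05) were the 2 called higher. On the other side, the 81 expressed genes before PCDH9 had a median of 0.15, with 21 called lower and 41 higher. Of 10 landmark genes on that side, BRCA2, PDS5B, RB1 and DLEU2 were called higher, LCP1, FOXO1 and TRIM13 lower (log2FC -5.70, -0.70 and -0.27), and 3 were not called. At 13q14, RB1 was 97.3 ± 0.0922 CPM (SD, n = 2) with KO and 63.4 ± 3.59 CPM without (log2FC 0.62, SE 0.04), and DLEU2 was 13.2 ± 0.986 against 4.90 ± 0.271 CPM. At the edges of the stretch from PCDH9 to TUBGCP3, TDRD3, the nearest expressed gene before it, had a log2FC of 0.10, TUBGCP3, its last gene, -1.58, and ATP11A, the nearest expressed gene after it, -0.30.

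**Figure D2:**
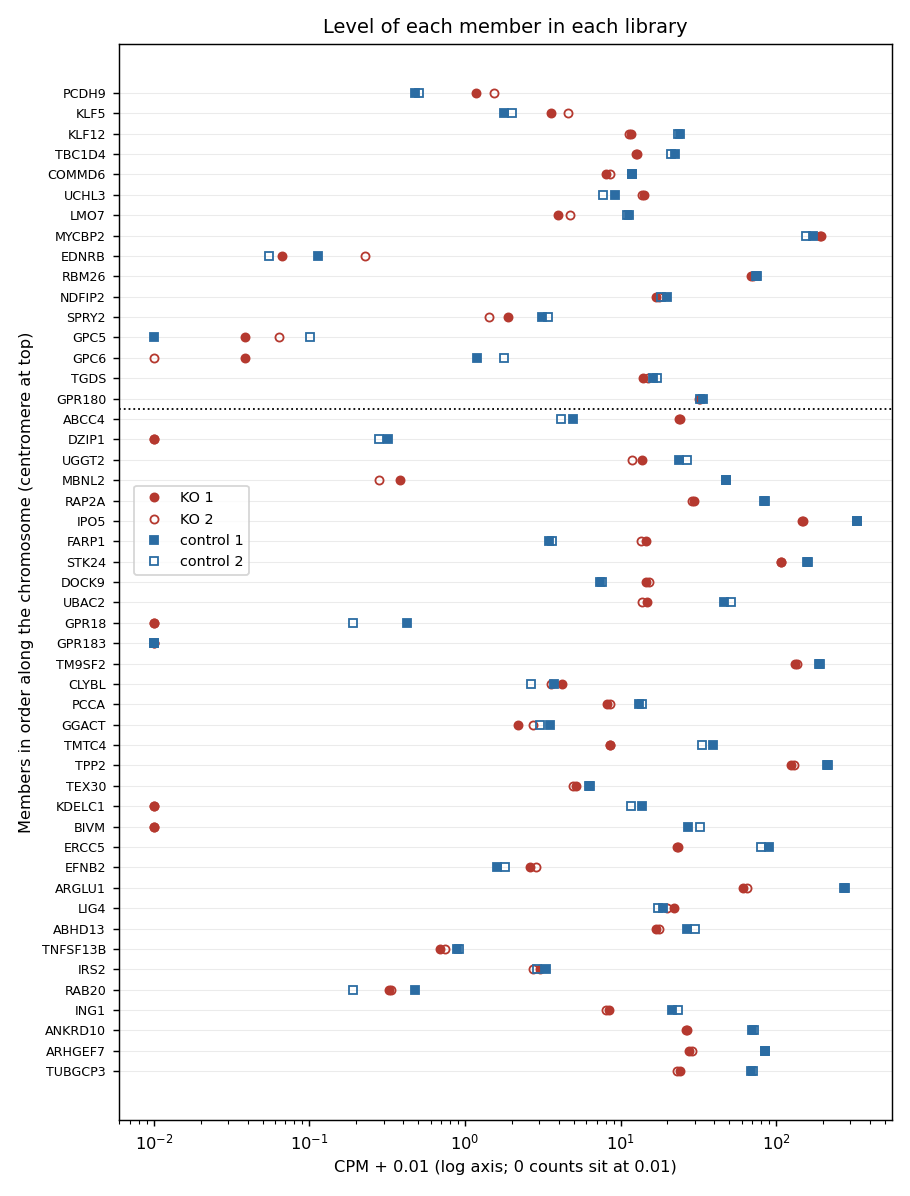
Level of each of the 49 members (rows, in order along the chromosome) in each of the 4 libraries, as CPM plus 0.01 on a log axis, with KO in red and control in blue. Above the dotted line (centromeric side) KO and control points often lie close together, and below it most KO points lie to the left, with BIVM, KDELC1, DZIP1 and GPR18 at 0 counts and ABCC4, FARP1 and DOCK9 to the right.

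Among the members that act in transcription and RNA processing, 5 of 8 were called lower and 2 higher. Over all tested genes 39.8% were called lower and 36.4% higher. The members were picked on this comparison, so nothing is read about a role from this count or from those of the roles below. MBNL2, a muscleblind protein that regulates alternative splicing, was 0.370 and 0.271 CPM in the KO libraries and 47.5 and 47.3 CPM in the control libraries, from 13 and 10 against 918 and 1050 counts (log2FC -7.19, SE 0.14). Its mRNA was nearly absent from both KO libraries, far below what its neighbours showed. ARGLU1, a transcriptional coactivator and splicing modulator, was 61.4 and 64.4 CPM in KO and 276 and 273 CPM in control (log2FC -2.12, SE 0.03). ING1, a reader of histone methylation and a tumour suppressor, was 8.46 and 8.04 against 21.5 and 23.4 CPM (log2FC -1.45, SE 0.10). On the centromeric side the picture was mixed. MYCBP2, a very large ubiquitin ligase that binds MYC, was 193 and 190 CPM in KO and 172 and 156 CPM in control (log2FC 0.23, SE 0.04), and RBM26, an RNA-binding protein, was 68.8 and 71.0 against 74.9 and 74.0 CPM (log2FC -0.09, SE 0.04). Relative to the median of the 8787 expressed genes, MYCBP2 was at 0.02 and RBM26 at -0.29, so the sign of MYCBP2 rests on the scaling. KLF5, a zinc finger transcription factor, was 3.56 and 4.55 CPM against 1.76 and 1.98 CPM (log2FC 1.11, SE 0.21). Its relative KLF12, a transcriptional repressor, and LMO7, a scaffold of cell junctions and the nucleus, had log2FC of -1.06 (SE 0.08) and -1.36 (SE 0.14), so neighbours on the centromeric side also differed in direction.

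Of 15 signalling genes, 11 were tested, 5 called lower and 3 higher. ARHGEF7, an exchange factor for the small GTPases RAC and CDC42, was 27.3 and 28.7 CPM in KO and 84.8 and 85.0 CPM in control (log2FC -1.5999, SE 0.05). RAP2A, a RAS-like GTPase, was 29.8 and 28.6 CPM against 82.9 and 84.4 CPM (log2FC -1.52, SE 0.05). Both were about equally far down and without overlap between groups. STK24, a kinase of the STE20 family, was 107 CPM in both KO libraries and 159 and 160 CPM in control (log2FC -0.57, SE 0.03). Right beside it FARP1, an exchange factor that links membrane receptors to the cytoskeleton, was 14.6 and 13.5 CPM in KO and 3.47 and 3.60 CPM in control (log2FC 1.98, SE 0.13). FARP1 and STK24 overlap tail to tail on opposite strands, so a part of their counts could belong to either. DOCK9, an activator of CDC42, was 14.5 and 15.3 against 7.35 and 7.57 CPM (log2FC 0.997, SE 0.11), and EFNB2, the ligand ephrin-B2, was 2.62 and 2.84 against 1.604 and 1.80 CPM (log2FC 0.68, SE 0.23). The call on EFNB2 was lost with DESeq2, with thinned KO libraries and without KO replicate 2, where its log2FC was 0.68, 0.50 and 0.63.

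TBC1D4, a RAB GTPase-activating protein of glucose transport, was 12.7 and 12.5 CPM in KO and 22.2 and 21.0 CPM in control (log2FC -0.78, SE 0.09). SPRY2, a feedback inhibitor of receptor tyrosine kinase signalling, had a log2FC of -0.98 (SE 0.23). The remaining tested signalling genes were not past the threshold. GPR180, the last gene before the boundary, was 31.9 and 32.4 CPM in KO and 33.8 and 32.4 CPM in control (log2FC -0.04, SE 0.06). IRS2, an adaptor of the insulin receptor, had a log2FC of -0.10 (SE 0.20), and TNFSF13B, which encodes the plasma cell survival factor BAFF, was under 1 CPM in all 4 libraries (log2FC -0.33, SE 0.40). The lymphocyte receptor gene GPR18 had 0 counts in the KO and 12 in the control libraries together. With KO bounded at 3 counts, its control mean was 7.14 times that bound, a ratio that leaves out the error of the 12 counts. GPR183, the oxysterol receptor that guides B cell migration, had no count in any library, and the endothelin receptor gene EDNRB and RAB20 stayed under 0.5 CPM.

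Of the 4 cell surface genes, ABCC4, a transporter that exports cyclic nucleotides and drugs, stood first on the telomeric side and was the member with the highest log2FC. ABCC4 was 24.0 and 23.7 CPM in KO, against 4.92 and 4.10 CPM in control (log2FC 2.41, SE 0.11). The protocadherin gene PCDH9 was low in all libraries, at 1.17 and 1.52 CPM in KO and 0.466 and 0.496 CPM in control (log2FC 1.47, SE 0.39). The glypican gene GPC6 had 1 and 0 counts in KO against 23 and 39 in control, a ratio of 108 for control over KO (95% Clopper-Pearson counting interval 18.6 to 4318). Its paralogue GPC5 had 3 counts in the KO and 2 in the control libraries.

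In the secretory pathway, transport and ubiquitin group, 8 of 10 were called lower and 1 higher. IPO5, an importin that carries proteins into the nucleus, was 147 and 149 CPM in KO and 332 and 329 CPM in control (log2FC -1.16, SE 0.03). TM9SF2, a Golgi membrane protein, was 132 and 136 against 187 and 191 CPM (log2FC -0.50, SE 0.03), and TPP2, a giant cytosolic peptidase, was 125 and 129 against 211 and 214 CPM (log2FC -0.74, SE 0.03). The 3 genes were among the most highly expressed members, with small errors, and yet their log2FC lay apart from each other by much more than those errors. Per kilobase of the longest transcript, their control levels were 55.0, 49.05 and 39.0 CPM, and ARGLU1 was above them at 68.4 CPM per kilobase. TMTC4, an O-mannosyltransferase of cadherins, was 8.49 and 8.50 CPM in KO and 39.5 and 33.5 CPM in control (log2FC -2.10, SE 0.09). UBAC2, a ubiquitin-associated protein of the endoplasmic reticulum, was 14.9 and 13.6 against 45.9 and 51.1 CPM (log2FC -1.77, SE 0.07). UGGT2, which monitors glycoprotein folding, had a log2FC of -0.97 (SE 0.09). On the centromeric side, COMMD6, a member of the COMM domain family, was 8.06 and 8.53 against 11.7 and 11.9 CPM (log2FC -0.51, SE 0.11), UCHL3, a deubiquitinating enzyme, was 14.04 and 13.7 against 9.16 and 7.71 CPM (log2FC 0.72, SE 0.11), and NDFIP2, an adaptor of NEDD4-type ligases, had a log2FC of -0.13 (SE 0.08).

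Of 5 metabolic genes, 2 were called lower. PCCA, the biotin-carrying subunit of propionyl-CoA carboxylase, was 8.14 and 8.47 CPM in KO and 13.1 and 13.7 CPM in control (log2FC -0.69, SE 0.11). ABHD13, a hydrolase-like membrane protein, was 16.8 and 17.5 against 26.5 and 30.0 CPM (log2FC -0.72, SE 0.07). CLYBL, a mitochondrial lyase linked to vitamin B12 metabolism, was 4.19 and 3.57 against 3.73 and 2.66 CPM and overlapped between groups (log2FC 0.29, SE 0.19), a value that passed the threshold only without control replicate 1 (log2FC 0.54). TGDS and GGACT had log2FC of -0.19 and -0.40 and were not past the threshold. In the repair and cytoskeleton group, ERCC5, the XPG endonuclease of nucleotide excision repair, was 23.0 and 23.4 CPM in KO and 89.9 and 79.5 CPM in control (log2FC -1.86, SE 0.06). TUBGCP3, a core subunit of the gamma-tubulin complexes that nucleate microtubules, had a log2FC of -1.58 (SE 0.05). LIG4, the ligase of non-homologous end joining, had one of 0.21 (SE 0.08). DZIP1, a ciliary basal body gene, had 0 counts in KO and 12 in control, a control mean 6.98 times the KO bound of 3 counts.

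The sharpest losses came in a pair of genes that share a start region. KDELC1, which glycosylates secreted proteins in the endoplasmic reticulum, and BIVM, a basic protein with an immunoglobulin-like motif, point away from each other with 41 bases between them. KDELC1 had 0 counts in both KO libraries and 263 and 260 in control (13.6 and 11.7 CPM), a control mean 304 times the KO bound of 3 counts. BIVM had 0 counts in both KO libraries and 527 and 723 in control (27.3 and 32.6 CPM), a control mean 719 times that bound. The read-through gene BIVM-ERCC5, which starts beside BIVM, had 0 counts in KO and 29 and 100 in control. In the GENCODE annotation the span of ERCC5 begins inside BIVM on the same strand, while its RefSeq start, at base 102846032, lies past the end of BIVM at base 102841535. By the GENCODE spans, counts may be shared among the 3 genes. ERCC5 had 809 and 863 counts in the KO libraries. TEX30, the next member toward the centromere, was 5.15 and 4.95 against 6.31 and 6.22 CPM (log2FC -0.31, SE 0.15). ANKRD10, an ankyrin repeat protein on the far telomeric side, was 26.8 and 26.3 against 69.8 and 71.8 CPM (log2FC -1.42, SE 0.05).

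In 2 other member pairs that share a start region, the log2FC of the partners had opposite signs. COMMD6 and UCHL3, 40 bases apart, had log2FC of -0.51 and 0.72, a difference of 1.23. LIG4 and ABHD13, 10 bases apart, had log2FC of 0.21 and -0.72, a difference of 0.93. Relative to the median of the 8787 expressed genes, LIG4 was at 0.007 and ABHD13 at -0.93, so the sign of LIG4 rests on the scaling. ING1 and the non-member CARS2, which overlap by 868 bases at their starts, were both lower (log2FC -1.45 and -0.99). The start regions of the 3 member pairs are shown to set the pair lost together beside the 2 pairs with log2FC of opposite sign. MBNL2 (nearly absent) and ABCC4 (highest log2FC) are shown for contrast. Each runs 250 bases before to 50 after a start of the RefSeq table (GRCh38.p14), 5′ to 3′ on the strand of the named gene, with CG dinucleotides in capitals because they are the sites of DNA methylation. The regions are chr13:102798869-102799168 (plus strand) for BIVM, chr13:75549252-75549551 (plus) for UCHL3, chr13:108218142-108218441 (plus) for ABHD13, chr13:97222083-97222382 (plus) for MBNL2 and chr13:95301402-95301701 (minus) for ABCC4.
BIVM and KDELC1: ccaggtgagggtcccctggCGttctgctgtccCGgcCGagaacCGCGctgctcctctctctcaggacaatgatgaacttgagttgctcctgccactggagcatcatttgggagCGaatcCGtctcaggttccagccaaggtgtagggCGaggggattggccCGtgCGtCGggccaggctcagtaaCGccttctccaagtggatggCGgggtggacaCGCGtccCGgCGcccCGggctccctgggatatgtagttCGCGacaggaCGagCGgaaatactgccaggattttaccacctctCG
UCHL3 and COMMD6: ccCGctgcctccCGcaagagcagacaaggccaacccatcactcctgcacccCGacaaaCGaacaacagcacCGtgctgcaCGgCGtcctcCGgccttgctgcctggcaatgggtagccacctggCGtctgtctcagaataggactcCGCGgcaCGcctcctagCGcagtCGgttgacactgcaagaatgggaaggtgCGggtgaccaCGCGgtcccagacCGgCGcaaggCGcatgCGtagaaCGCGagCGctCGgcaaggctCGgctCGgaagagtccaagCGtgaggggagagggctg
ABHD13 and LIG4: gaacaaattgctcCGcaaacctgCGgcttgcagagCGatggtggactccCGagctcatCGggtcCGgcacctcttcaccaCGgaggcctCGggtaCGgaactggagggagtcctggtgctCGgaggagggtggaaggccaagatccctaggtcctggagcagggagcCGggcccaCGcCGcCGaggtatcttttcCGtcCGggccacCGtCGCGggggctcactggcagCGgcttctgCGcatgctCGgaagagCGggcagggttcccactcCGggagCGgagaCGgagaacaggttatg
MBNL2: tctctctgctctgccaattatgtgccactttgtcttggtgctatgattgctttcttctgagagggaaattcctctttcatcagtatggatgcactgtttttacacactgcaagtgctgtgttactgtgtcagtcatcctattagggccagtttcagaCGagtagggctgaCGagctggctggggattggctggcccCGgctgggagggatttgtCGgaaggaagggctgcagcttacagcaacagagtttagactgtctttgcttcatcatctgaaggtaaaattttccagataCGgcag
ABCC4: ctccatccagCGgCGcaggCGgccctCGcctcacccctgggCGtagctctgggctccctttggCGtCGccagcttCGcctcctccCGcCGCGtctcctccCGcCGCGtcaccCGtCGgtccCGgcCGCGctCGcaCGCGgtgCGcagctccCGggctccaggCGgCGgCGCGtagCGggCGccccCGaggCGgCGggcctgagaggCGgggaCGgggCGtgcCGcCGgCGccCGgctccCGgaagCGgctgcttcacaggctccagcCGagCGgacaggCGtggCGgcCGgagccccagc

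These windows hold 23 CG dinucleotides for BIVM, 28 for UCHL3, 26 for ABHD13, 5 for MBNL2 and 47 for ABCC4, where the median over 22198 protein-coding starts in the table was 21. Of the coding starts 46.1% had at least as many as BIVM, 81.8% at least as many as MBNL2 and 3.11% at least as many as ABCC4. MBNL2 and UCHL3 have 2 starts each in the table, and the one nearest to the annotated gene start is shown. The table held a start for 47 of the 49 members. The ETS-type motif CCGGAAG, searched on both strands, stood in 8 of the 47 windows (17.0%, against 12.8% of coding starts), TATAAA in 6 (12.8% against 9.47%) and CCAAT in 16 (34.0% against 34.7%). Of the windows shown, BIVM and MBNL2 hold CCAAT, ABCC4 holds CCGGAAG, and UCHL3 and ABHD13 hold none of the 3. A match of letters is not evidence of a factor there.

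The interquartile range of log2FC over the 30 expressed members was 1.42, where it was 0.89 over all 8787 genes and 0.65 over the 81 genes of chromosome 13 before PCDH9. In 211 windows of 40 neighbouring genes the median interquartile range was 0.73, and the window that holds the members had the third widest (1.39) and the lowest median. That window spans the boundary. Telomeric members alone had an interquartile range of 1.08, and 14 of the 211 windows were wider. All 37 expressed genes on the telomeric side, non-members included, had one of 1.03, with 19 windows wider. BIVM is the lowest expressed telomeric member at its fitted value and at its bound alike, so either choice leaves the telomeric median at -1.42 by construction.

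**Figure D3:**
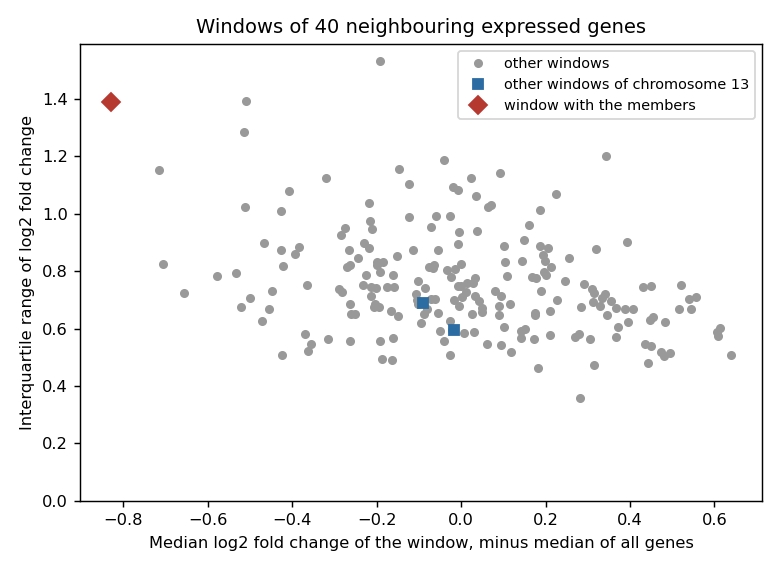
Median log2 fold change minus the median of all genes (x axis) and interquartile range of log2 fold change (y axis) for 211 windows of 40 neighbouring expressed genes. The window with the members (red diamond) has the lowest median and an interquartile range of 1.39, while the other 2 windows of chromosome 13 (blue squares) lie near 0 with ranges of 0.59 and 0.69.

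As a scale, mRNA in proportion to gene copies would shift by -1 on the log2 scale if 1 of 2 copies were lost and by -0.58 if 1 of 3 were lost. These are examples only, and loss of 2 of 3 copies would shift it further than loss of 1 of 2. The number of copies in these cells was not measured. Taken relative to the median of all 8787 genes, 7 of the 21 telomeric members lay between -0.5 and -1.5, 9 between -1.5 and -2.5, 2 below -2.5 and 3 above 0. None lay between 0 and -0.5, a band that held 4 of the 9 centromeric members. Of the 21, 5 were within 0.25 of their own median, a share of 23.8%, where 30.8% of all 8787 genes were that close to theirs. Of the 13 expressed genes after the last member, 6 (46.2%) were that close to their own median. These values chose the members, and whether they fit 1 copy-number level was not tested.

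**Figure D4:**
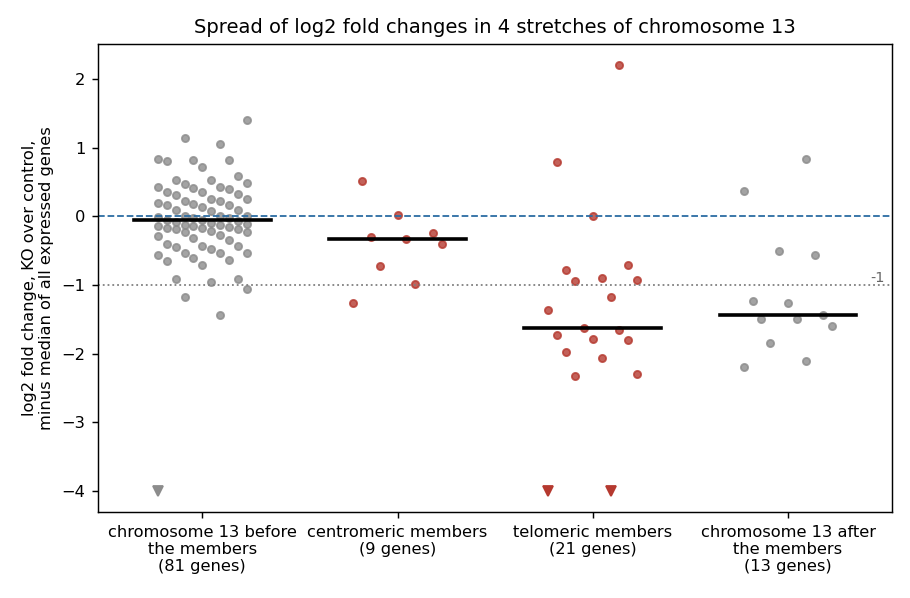
Log2 fold change minus the median of all expressed genes (y axis) for the expressed genes of 4 stretches of chromosome 13, with 1 point per gene, a bar for the median and triangles for genes below -4. The dotted line is the shift that loss of 1 of 2 copies would give; telomeric members have a median of -1.62, with 18 of 21 genes below 0, and the 13 genes after the members one of -1.44.

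The scatter among members was larger than the differences between libraries of a group. Over the 30 expressed members the difference between the KO libraries lay between -0.09 and 0.21 (log2 of CPM plus 0.5, after subtracting the median of all genes) and that between the control libraries between -0.25 and 0.24. In each of the 4 pairings of a KO with a control library, the member median was between -0.997 and -0.947, the telomeric median between -1.64 and -1.503 and the centromeric median between -0.40 and -0.26. Of the 21 telomeric members, 18 or 19 were on the lower side in every pairing. The median standard error of the 30 log2FC was 0.08.

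Neighbouring members differed from each other as well. Between adjacent expressed members the median absolute difference in log2FC was 0.73 over 29 pairs, and 13 pairs (44.8%) differed by more than 1. Among all adjacent genes of the 8787 the median was 0.56, and 26.1% differed by more than 1. Control level and sequence properties were set beside the log2FC of the 30 members. Spearman's rho was -0.45 with the control level, which itself enters the fold change, 0.21 with transcript length, -0.23 with transcript GC content and 0.05 with the number of CG dinucleotides at the start (29 members). Over the 8787 genes the rho was 0.004 with control level, -0.18 with length, -0.05 with GC content and -0.05 with CG dinucleotides (7312 genes). Over the 21 telomeric members it was -0.32, 0.38, -0.07 and 0.35 in the same order. Median transcript GC was 43.2% for telomeric and 40.3% for centromeric members, against 47.7% for all. These are relations across genes of the same 4 libraries and carry no p.

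Between PCDH9 and TUBGCP3 the annotation has 45 further protein-coding genes, of which 22 were tested and 9 had no count in any library. The 22 held 10 called lower and 7 higher (45.5% and 31.8%), beside 39.8% and 36.4% of all tested genes. On the centromeric side 6 such genes had a median log2FC of -0.07, among them the exosome nuclease gene DIS3 (0.27, SE 0.05), which is often mutated in myeloma. On the telomeric side there were 3, the chaperone gene DNAJC3 (-0.68, SE 0.03), CARS2, a mitochondrial tRNA synthetase gene (-0.99, SE 0.06), and NAXD (0.02, SE 0.10). Their median was -0.68, and none of the 3 was at least 2-fold lower. Several low genes were nearly absent in KO, such as the melanin enzyme gene DCT (0.665 against 12.7 CPM), SLITRK1 (0 counts in both KO libraries against 28 and 38), FGF14 (0 and 1 against 26 and 33) and FAM155A (2 and 0 against 56 and 78). The neural transcription factor genes ZIC2 (4.61 against 0.739 CPM) and ZIC5 (1.87 against 0.442 CPM) and KCTD12 (10.8 against 3.02 CPM) were higher. Of 23 tested non-coding genes in the interval 16 were called lower and none higher, and 7 were not called, beside 39.8% lower and 36.4% higher over all tested genes. Because the annotation used for counting and its strand setting are not given, genes that overlap others (16 members have a tested gene overlapping them) are uncertain.

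Genes that work with the members or are their paralogues, all on other chromosomes, were not used to choose them and could be tested. Of 104 listed, 94 were tested, 49 rose and 32 fell in the KO libraries by edgeR, with a median log2FC of 0.18. That is 52.1% higher and 34.0% lower, beside 55.2% and 30.7% of the 8787 expressed genes, whose median was 0.20. Paralogues of the most lowered members did not share a direction. MBNL1 rose from 184 ± 1.56 to 426 ± 9.47 CPM (log2FC 1.21, adjusted p = 3.94e-24) where MBNL2 was nearly absent, while MBNL3 was 80.8 ± 1.84 against 81.6 ± 0.104 CPM (adjusted p = 0.763). KDELC2 was nearly absent like KDELC1, at 0.153 ± 0.0251 CPM in KO and 46.5 ± 4.03 CPM in control (adjusted p = 6.67e-26). ARHGEF6, the closest relative of ARHGEF7, fell to 0.749 ± 0.0123 from 62.8 ± 0.0719 CPM (adjusted p = 8.52e-28), and GIT1, a binding partner of both, had a log2FC of -1.49 (adjusted p = 3.78e-20). The relatives of DOCK9 went the other way from it, with DOCK11 at 9.81 ± 0.825 against 62.8 ± 1.16 CPM (adjusted p = 1.11e-23) and DOCK10 at 2.44 ± 0.148 against 27.5 ± 1.94 CPM. UCHL1 rose to 471 ± 0.316 from 157 ± 6.37 CPM (adjusted p = 2.24e-26), in the direction UCHL3 showed.

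Genes that work in 1 complex or pathway with members also moved in both directions. PCCB, the other subunit of propionyl-CoA carboxylase, rose (log2FC 0.98, SE 0.06, adjusted p = 1.99e-15), against -0.69 for PCCA. TUBG1, the gamma-tubulin that TUBGCP3 binds, rose to 122 ± 2.98 from 49.2 ± 3.54 CPM (adjusted p = 3.59e-20). TUBGCP5, TUBGCP2 and TUBGCP6 were called higher with log2FC of 0.65, 0.18 and 0.14, and TUBGCP4 was at -0.02 (adjusted p = 0.646). Relative to the median of the 8787 expressed genes (0.20), TUBGCP5 was at 0.44, but TUBGCP2 and TUBGCP6 were at -0.03 and -0.06. UGGT1 rose (log2FC 0.56) against -0.97 for UGGT2. Of the 8 genes listed with LIG4 in DNA end joining and ligation, 5 rose. XRCC4, the direct partner of LIG4, had a log2FC of 1.30, and PRKDC, XRCC5, XRCC6 and LIG1 had 0.62, 0.66, 0.61 and 0.44. DCLRE1C fell (-0.42), and NHEJ1 and LIG3 did not pass the threshold. Of the 6 repair genes listed with ERCC5, 4 were called higher, with ERCC2 at 0.69, and 2 fell, with ERCC4 at -0.69. Relative to the median of the 8787 genes, ERCC3, XPA and XPC of these 4 were at 0.09, 0.04 and -0.11. TNFRSF17, which encodes BCMA, a receptor for BAFF, rose to 595 ± 0.730 from 279 ± 3.94 CPM (adjusted p = 4.77e-24), and TNFRSF13C, the BAFF receptor, fell to 1.21 ± 0.0631 from 9.56 ± 0.939 CPM (adjusted p = 8.37e-15). Whether a member and its partner differ from each other was not tested.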

How the data were processed

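Poly(A) RNA-seq of 4 libraries, 2 a group, was analysed. The authors deposited a single matrix whose entries are Salmon estimated counts by gene. Salmon 0.12 and GRCh38 are named in the submitters' processing notes. Every entry was a whole number, so none needed rounding. The annotation, strand setting and filters used upstream are not stated in the labels. All 56809 gene names occur in GENCODE 29, which gave coordinates. A further 92 spike-in rows were left out. Genes were filtered with filterByExpr, scaled with TMM and compared with edgeR 4.0.16 (glmQLFit, robust=TRUE) without covariates; SE is the absolute log2 fold change over the square root of F. A group with 0 counts is bounded at 3 counts over the group (0.0416 CPM in KO). The control mean is taken as measured, so a ratio to this bound leaves out counting error in control. Bounds and intervals cover no error but that of counting. Within each group, counts varied beyond what counting error alone would give (chi-square divided by its degrees of freedom, 1.79 for KO and 2.43 for control). The common biological coefficient of variation from edgeR, the spread left after counting error, was 2.32%. These values cannot tell separate cultures from repeated preparations of the same RNA, because either can add variation beyond counting error. Simulated data with 17177 tested genes gave 42 of 50 genes recovered at 2-fold and 18 of 50 at 1.2-fold. Only 50 genes were changed at each fold, with 1 common dispersion, while 76.2% of the genes tested here were called. The recovery therefore does not measure how many changes of that size would be found in these libraries. The members, lists and tests were chosen with earlier results of these data known. Values in every library are given for the 8 lowest, 8 highest and 6 most central tested members by log2 fold change and the 6 next by control level. Partner genes named by rule are the 3 with the smallest p each way and partners of those members; other genes given with such values were chosen after their values were seen. Alternatives were other scalings and filters, DESeq2 1.42.0, limma-voom (limma 3.58.1), a replicate block, leaving out libraries, no robust shrinkage, thinned KO counts, a threshold of 0.01 and other minimum levels.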

Additional observations from a re-analysis of the deposited data

How the results depend on the processing

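The difference between the member median and that of all genes (-0.96) stayed between -0.98 and -0.93 in all alternatives but a minimum of 20 CPM. It was -0.93 with a minimum of 5 CPM and -1.68 with 20 CPM, where 3 centromeric and 14 telomeric members remain. The same difference for telomeric members alone was -1.46 with 5 CPM, -1.62 with 10 CPM and -1.81 with 20 CPM. The interquartile range of the members (1.42) was 1.46 with KO libraries thinned to the control depth, 1.201 with the minimum of 20 CPM, 1.35 without the members nearly absent from KO (chosen after seeing the data), and 1.34 to 1.46 leaving out each library. The count of members called lower was 25 to 31 and higher 7 to 10. Upper-quartile factors moved the median of all expressed genes from 0.20 to 0.07, with 8110 genes called lower and 5510 higher, partners 35 and 41, and RBM26 past the threshold (-0.22). With 1 library left in an arm, it is assumed to vary like the other arm. Replicate numbers do not pair the samples (correlation of deviations 0.00218 over 17885 genes). With the replicate block, 6922 genes were called lower and 6365 higher, against 7123 and 6506, members 25 and 9, and partners 31 and 46 against 32 and 49; the member median stayed at -0.96 and the interquartile range at 1.42. No result changed direction. The depth limits low members: 6 were not testable. The causes of these shifts were not tested.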
